A study of Mus musculus with 9 samples.

Results

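Antisense-only SAFB peaks are places where RNA recovered with SAFB maps to the strand opposite an annotated gene and to no annotated gene of its own strand. They were taken from the authors' list of 30998 stranded peaks on the mouse build mm10. A peak belonged to the set when its midpoint lay in a GENCODE M21 gene of the other strand and in none of the peak's strand. The set held 4039 peaks, 13.0% of the list (95% Wilson interval 12.7 to 13.4), of which 1961 were on the plus and 2078 on the minus strand. The gene lying on the other strand is called the opposite gene throughout.

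The list comes from RNA immunoprecipitation sequencing of mouse embryonic stem cells, which measures RNA that co-purifies with a protein. All cells were male CAST/B6 with Rosa26-RMCE, and every group received doxycycline for 3 days. The SAFB1 antibody was used on Safb1/2 double-knockout clones 4 and 13 (2 libraries) and on wild-type cells, namely the parent line and clones 20 and 44 (3 libraries). IgG was used on wild-type cells, the parent line and clone 20 (2 libraries). The FLAG antibody was used on double-knockout clone 13 carrying a full-length SAFB1 plasmid (1 library) or an eGFP plasmid (1 library). The SAFB1-plasmid library has a genotype label of wild type, against its title, which was followed. No source used here gives the promoters of the plasmids. The list gives positions and no value per library, so no antibody, genotype or replicate could be compared, no result has replicates, and the depth behind a peak is unknown. Shares carry Wilson intervals and densities exact Poisson intervals, which cover counting error only and treat peaks as independent.

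SAFB1, SAFB2 and the related protein SLTM are nuclear proteins with an RNA recognition motif and a DNA-binding SAP domain, and SAFB proteins are described as preferring purine-rich RNA. Antisense transcription arises in several known ways: a polymerase can run past the end of a gene into a convergent neighbour, a promoter can fire in the reverse direction, and an unannotated gene can lie inside another. In nuclear RNA such transcripts are often unspliced and short-lived. Where a library keeps strand, a small part of reads from an abundant RNA can also appear on the wrong strand.

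The antisense-only peaks whose sequence could be read included pyrimidine-rich and purine-rich ones. Sequences could be read for the 530 members wholly inside 1 exon of an opposite gene, from the complement of the GENCODE M21 transcript (GRCm38). The following are examples of both kinds and not the extremes, each written 5′ to 3′ on the strand of the peak. Capitals mark the purine hexamer AGAAGA, its shifted form GAAGAA and the further form AAGAAG, and the reverse complement of each, the pyrimidine hexamer TCTTCT, then TTCTTC for the next and CTTCTT for the last; matches can overlap one another. These hexamers were taken from an earlier analysis of exonic peaks of the same list. The peaks in Upf2 and Safb overlap a SAFB peak of the other strand, wholly in Upf2 and over 93.5% of the bases in Safb, and the peaks in BC028777 and 3300002P13Rik overlap none.
Upf2, chr2:5957571-5957850, minus strand, antisense to coding sequence: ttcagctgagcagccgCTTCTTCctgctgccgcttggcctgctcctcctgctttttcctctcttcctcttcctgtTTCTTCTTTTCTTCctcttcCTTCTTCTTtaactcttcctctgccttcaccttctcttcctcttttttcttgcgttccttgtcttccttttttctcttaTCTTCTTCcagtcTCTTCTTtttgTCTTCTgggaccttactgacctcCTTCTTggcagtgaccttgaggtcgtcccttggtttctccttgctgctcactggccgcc
Safb, chr17:56598899-56599037, minus strand, antisense to coding sequence: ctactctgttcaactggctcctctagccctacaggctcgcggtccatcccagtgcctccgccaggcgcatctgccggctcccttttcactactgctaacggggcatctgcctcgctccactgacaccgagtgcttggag
BC028777, chr17:24221541-24221629, minus strand, antisense to a non-coding exon: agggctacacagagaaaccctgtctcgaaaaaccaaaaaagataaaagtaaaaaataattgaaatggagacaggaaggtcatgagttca
3300002P13Rik, chr7:3422121-3422361, plus strand, antisense to a non-coding exon: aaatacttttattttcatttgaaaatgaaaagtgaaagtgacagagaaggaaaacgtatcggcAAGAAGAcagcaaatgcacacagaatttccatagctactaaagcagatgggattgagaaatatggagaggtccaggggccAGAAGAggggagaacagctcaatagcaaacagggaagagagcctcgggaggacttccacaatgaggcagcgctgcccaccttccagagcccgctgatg

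A and G made up 18.9% of the Upf2 peak and 37.4% of the Safb peak. They made up 69.7% of the BC028777 peak and 63.9% of the 3300002P13Rik peak. The Upf2 peak held 17 matches of the pyrimidine hexamers and none of the purine hexamers. Upf2 encodes a factor of nonsense-mediated decay. The Upf2 peak is among the 3 lowest in purine share, and the BC028777 peak among the 3 highest, of 105 members that were at most 300 bases wide and free of untranslated regions. The opening bases of the BC028777 peak also occur in the peak in Lcorl (67.9%), another of the 3 highest. Whether these peaks lie in repeated sequence was not examined. The highest share of the 105, 70.7%, was that of a peak in Slc7a9, which overlapped a peak of the other strand over 76% of its bases. Lower than Upf2 were peaks in Nbea (7.46%) and Igsf11 (2.91%), both wholly overlapped. The 3300002P13Rik peak was chosen after its values were seen, for its purine hexamers.

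Density on the antisense strand was a fraction of that on the sense strand over the same bases. Genes of 1 strand only covered 1169 Mb. On the strand opposite the gene these bases held 3.46 peaks per Mb, and on the gene's own strand 16.1 peaks per Mb (18876 sense peaks), a ratio of 0.214 (exact binomial interval 0.207 to 0.221). The median antisense-only peak was 480 bases wide (quartiles 250 and 877), and the median sense peak 660 bases (quartiles 314 and 1192). The opposite gene was protein-coding for 3571 members (88.4%, interval 87.4 to 89.4) and long non-coding for 382 (9.46%, 8.59 to 10.4). Density was 3.59 per Mb (3.48 to 3.71) opposite protein-coding genes and 2.62 per Mb (2.36 to 2.89) opposite long non-coding genes. On their own strand the sense peaks had 17.7 and 6.89 per Mb in these kinds of gene.

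Each gene was divided into 10 deciles of equal length, numbered from its start. Along the opposite gene the peaks crowded toward its 3′ end. The last decile of the opposite gene held 860 of 4039 members (21.3%, interval 20.1 to 22.6), against 10.3% of sense peaks (9.84 to 10.7) and 9.65% of the bases. The ninth decile held 14.0% (13.0 to 15.1), against 10.7% of sense peaks. The third decile held least, 6.26% (5.56 to 7.05), against 10.1% of sense peaks. The first decile held 7.80% (7.01 to 8.67), against 8.69% of sense peaks (8.29 to 9.10). The median member lay 9.68 kb from the end of its opposite gene and 22.7 kb from its start. Peaks were not confined to the very end: 307 members lay within 1 kb of the opposite gene's end, where density was 9.13 per Mb, and 211 (5.22%) within 1 kb of its start, where it was 6.24 per Mb.

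**Figure D1:**
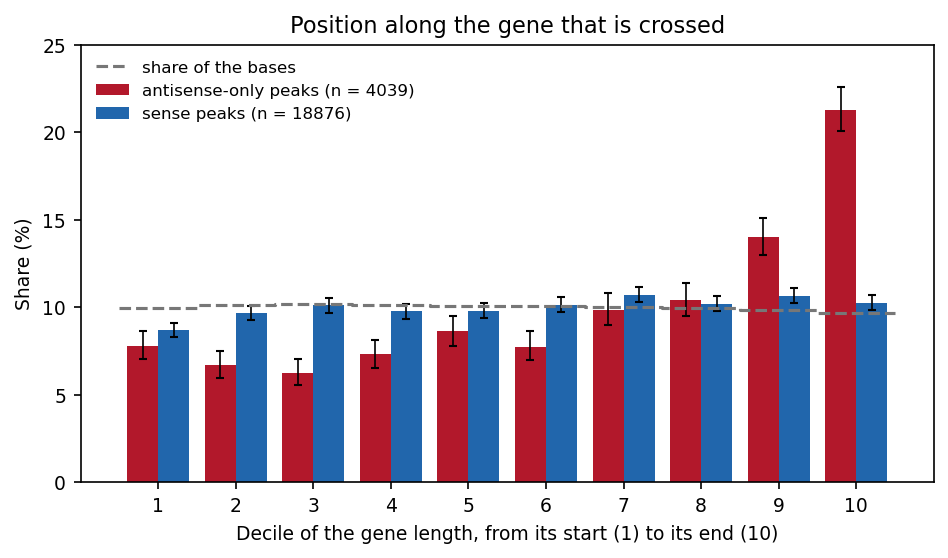
Share of peaks in each decile of the gene, for 4039 antisense-only peaks (red, by the opposite gene) and 18876 sense peaks (blue, by their own gene), with 95% Wilson intervals; the dashed line is the share of bases on which an antisense-only peak could lie. The red bars rise to 21.3% in the last decile, while the blue bars stay between 8.69% and 10.7%.

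By feature of the opposite gene, 2904 members lay in introns (71.9%, interval 70.5 to 73.3), 506 opposite coding sequence (12.5%, 11.5 to 13.6), 294 opposite 3′ untranslated regions (7.28%, 6.52 to 8.12), 39 opposite 5′ untranslated regions and 296 opposite other exons. Exons of the opposite gene thus held 28.1% of members (26.7 to 29.5), against 17.0% of sense peaks (16.5 to 17.6) and 9.76% of the bases. Density was 9.95 per Mb opposite exons and 2.75 per Mb in introns, and for sense peaks 28.2 and 14.8 per Mb. Intronic members lay a median of 1.25 kb from the nearest exon of the opposite strand, and 383 of them (13.2%) lay more than 10 kb from one. Of the members opposite 3′ untranslated regions, 78.2% (73.2 to 82.6) lay within 10 kb after the end of a gene on their own strand, against 40.8% (39.0 to 42.6) of the intronic members.

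The end of a gene on the peak's own strand was close by for many members. A same-strand gene end lay within 10 kb upstream of 1830 members (45.3%, interval 43.8 to 46.8), while 9.47% of the bases lay so. Density was 16.5 per Mb within 10 kb after an end and 2.09 per Mb farther away. In the first kb after the end it was 20.1 per Mb (17.5 to 23.1), and between 1 and 2 kb it was 23.1 (20.3 to 26.1). Between 2 and 5 kb it was 19.5 per Mb, between 5 and 10 kb 12.9 (11.9 to 13.8), and between 10 and 20 kb 5.68 (5.22 to 6.16). Density went on falling with distance, to 0.803 per Mb (0.700 to 0.916) beyond 200 kb. The median distance was 12.1 kb (quartiles 4.55 and 52.2). Peaks outside all genes lay within 10 kb after a gene end in 46.9% of cases (45.7 to 48.1). The share of bases outside genes that lie so was not computed, so this cannot be compared with the antisense-only share.

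Starts of same-strand genes had a smaller excess of peaks upstream of them. Within 10 kb before a start lay 694 members (17.2%, interval 16.1 to 18.4) and 9.76% of the bases, and density was 6.08 per Mb there and 3.17 per Mb elsewhere. In the kb just before a start it was 8.38 per Mb (6.84 to 10.2), and from 1 to 2 kb before a start 5.67 (4.41 to 7.17). The median distance to the next start was 39.2 kb. Of the 694 members, 388 also lay within 10 kb after a gene end. These 388 were 9.61% of all members (interval 8.74 to 10.6), on 1.72% of the bases. The excess before starts thus includes bases that also lie after ends. Density before starts with no end nearby was not computed. At the other extreme, 597 members (14.8%, 13.7 to 15.9) lay more than 50 kb from both the last same-strand end and the next same-strand start.

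**Figure D2:**
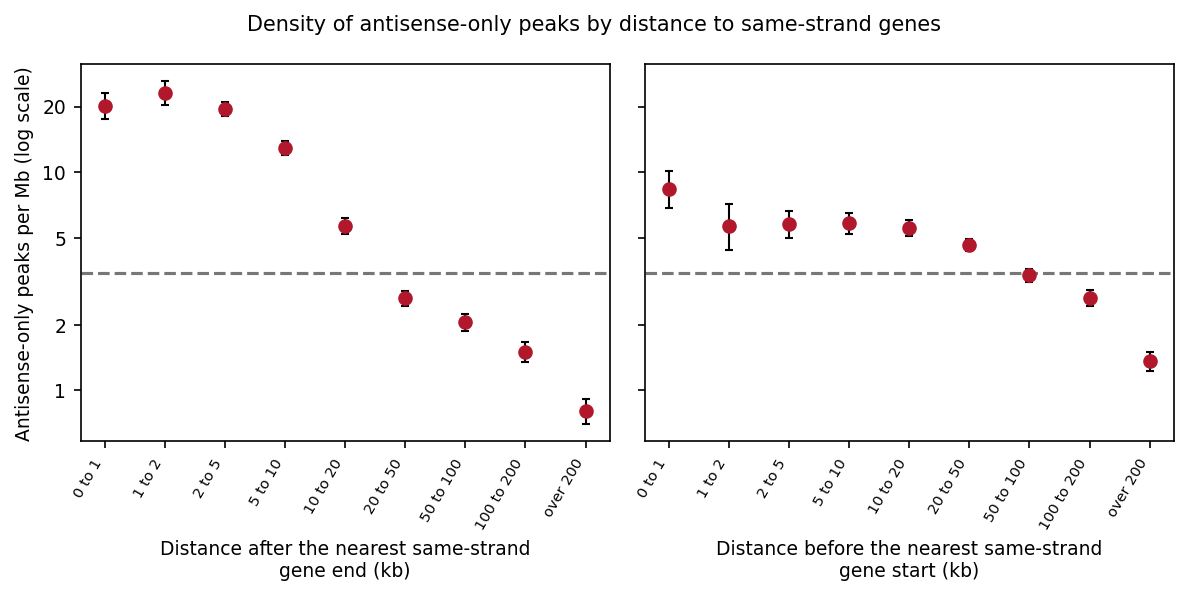
Antisense-only peaks per Mb of the bases they could occupy (log scale), by distance after the nearest same-strand gene end (left) and before the nearest same-strand gene start (right), with 95% Poisson intervals; the dashed line is the mean of 3.46 per Mb. After an end the density falls from above 20 per Mb in the first 2 kb to 0.803 per Mb beyond 200 kb, and before a start it varies less, between 8.38 and 1.36 per Mb.

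Nearness to a same-strand end and the 3′ position in the opposite gene went together. Among members within 10 kb after an end, 31.7% (interval 29.6 to 33.9) lay in the last decile of the opposite gene, against 12.7% (11.4 to 14.1) of the members farther away. Of the members in the last decile, 67.4% (64.2 to 70.5) were within 10 kb after a same-strand end. The members farther than 10 kb from an end had 10.2% (8.99 to 11.5) in the first decile.

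The 1830 members after gene ends followed 1368 genes, of which 1075 were protein-coding. That is 1075 of 8871 protein-coding genes with bases antisense to another gene, and to no gene of their own strand, within 10 kb after their end, or 12.1%. Genes with a SAFB peak in their own body had such a downstream peak more often: 464 of 2400 (19.3%), against 611 of 6471 genes without one (9.44%, 8.75 to 10.2). Expression was not measured in the deposited list, so it cannot be told apart from binding here.

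Among the genes followed by most members, 5 were followed by 5 each. Sbds, a ribosome maturation factor, was followed by 5 antisense-only peaks at 2.27, 2.81, 3.40, 4.30 and 9.10 kb after its end, which lay opposite Tmem248. The first 4 of them lay opposite its 3′ untranslated region and the last opposite an intron. Foxh1, a transcription factor of Nodal signalling and 1.72 kb long, was followed by 5 at 0.790, 2.89, 4.60, 5.74 and 6.74 kb, all opposite the kinesin gene Kifc2. Foxh1 had no sense peak, and its 5 downstream peaks put Kifc2 first by density, at 0.600 per kb, of the 79 opposite genes holding 5 or more. Raph1, an actin regulator of lamellipodia, was followed by 5 at 2.38 to 8.64 kb, opposite Abi2, a subunit of the WAVE complex. All 5 lay inside the longer Raph1 gene of RefSeq. The non-coding Gm9939 was followed by 5 opposite Gm34368. None of these 20 peaks overlapped a peak of the other strand. 2410015M20Rik was also followed by 5, all in Safb, and each overlapped a Safb sense peak.

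A further 16 genes were followed by 4 members each. They include Kdm2b and Jarid2, both chromatin regulators of Polycomb pathways, Fbxw7, which encodes a ubiquitin ligase subunit, the RNA polymerase II subunit gene Polr2j, and the translation initiation factor gene Eif3j1. The peaks after Kdm2b lay opposite Rnf34, 2.49 to 9.99 kb from its end, and those after Jarid2 lay opposite Dtnbp1, 1.22 to 7.87 kb from its end. Kdm2b held 4 sense peaks and Fbxw7 held 7, while Jarid2, Polr2j and Eif3j1 held none.

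A separate portion of the members coincided with a SAFB peak on the sense strand of the opposite gene. Of the 4039 members, 826 (20.5%, interval 19.2 to 21.7) shared at least 1 base with a peak of the other strand. The midpoint of 778 members (19.3%, 18.1 to 20.5) lay under such a peak, while such peaks covered 1.33% of the bases on which a member could lie. Seen from the larger set, 808 of 18876 sense peaks (4.28%) overlapped a peak of the other strand. The 2 shares describe mostly the same pairs and differ with the sizes of the sets. In 625 cases (15.5% of all members, 14.4 to 16.6) the member lay wholly inside the other peak. The overlapping members had a median width of 372 bases and the peaks they overlapped 1420 bases, and the member was the narrower in 744 of 826 cases.

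Wide sense peaks carried an overlapping peak of the other strand far more often than narrow ones. In the widest quartile, from 1193 to 5062 bases, 471 of 4711 did (10.00%, interval 9.17 to 10.9), against 44 of 4731 (0.930%, 0.694 to 1.25) in the narrowest quartile, up to 314 bases. Wide peaks offer more bases to overlap. Overlapping members were also placed differently from the rest: 18.4% (15.9 to 21.2) lay within 10 kb after a same-strand gene end, against 52.2% (50.5 to 53.9) of the other members, and 11.0% (9.06 to 13.3) in the last decile of the opposite gene, against 23.9% (22.5 to 25.4). Opposite coding sequence 31.0% of members overlapped a sense peak (27.2 to 35.2), opposite 3′ untranslated regions 6.46% (4.18 to 9.87) and in introns 20.1% (18.7 to 21.6).

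Safb and Safb2, the knocked-out genes, showed the overlap in every member they held. Safb (chromosome 17, 56584825 to 56606294, plus strand) held 8 antisense-only peaks and Safb2 (56560965 to 56584585, minus strand) 7, and all 15 overlapped a sense peak. The 8 in Safb were 103, 104, 366, 406, 139, 620, 99 and 774 bases wide, and 7 of them lay opposite exons. In 5 of the 8 every base lay inside the sense peak, and in the other 3 the shared part was 87.4%, 93.5% and 71.8%. The 7 in Safb2 were 178, 170, 197, 305, 246, 527 and 204 bases wide, and 6 lay opposite exons. The last of these 7 shared 11.8% of its bases with a sense peak, and the others 95.5% to 100%. Seen from the sense side, 8 of 13 Safb peaks and 7 of 10 Safb2 peaks were overlapped. Sltm, the third member of the family, held 1 antisense-only peak, which overlapped its 1 sense peak.

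**Figure D3:**
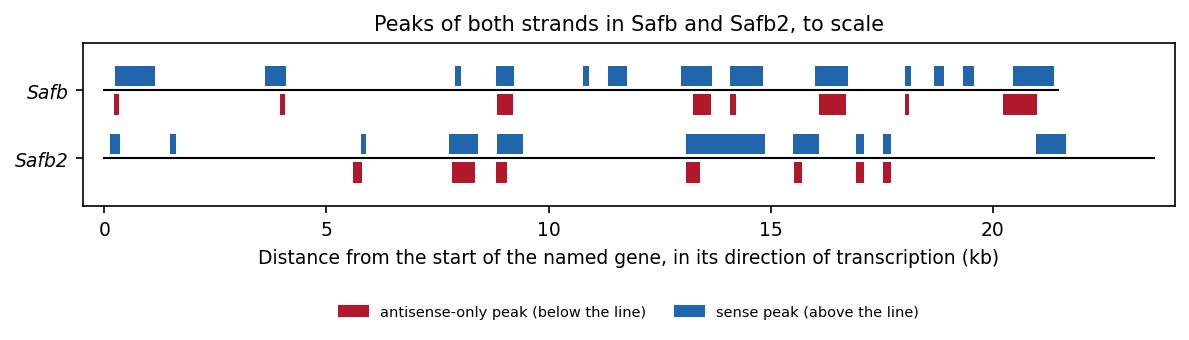
Peaks of both strands in Safb and Safb2, with antisense-only peaks (red) below and sense peaks (blue) above a line from the gene's start to its end in kb, drawn to scale. All 8 red peaks of Safb and all 7 of Safb2 lie at least in part under a blue peak.

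Overlap was uneven among other opposite genes with many sense peaks. Pde4d, a cAMP phosphodiesterase with 151 sense peaks, held 9 antisense-only peaks, of which 7 overlapped a sense peak, and Etl4 held 8, of which 6 did. In Samd4 it was 4 of 4, with 32 sense peaks, and in Cacna1a, a calcium channel subunit, 4 of 8. In contrast, Tenm4, with 72 sense peaks, had 2 of 9 members overlapping, Atrnl1, with 46, had 2 of 8, and Adamtsl1, with 21, had 0 of 7. Samd4 and Adamtsl1 were chosen after their values were seen.

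Composition was read on the peak's own strand. An overlapping member is read as the complement of bases under a sense peak, so its composition is tied to that of the sense peak by base pairing and is no separate observation. Among members inside 1 exon, the 157 that overlapped a peak of the other strand averaged 40.2 ± 9.79% A plus G (SD over peaks), and the 373 that overlapped none averaged 52.6 ± 6.70%. Sense peaks inside 1 exon averaged 52.9 ± 5.56% (1422 peaks), and the 80 of them that were overlapped averaged 54.3% on their own strand. A plus G exceeded 50% in 17 of the 157 overlapping members (10.8%, interval 6.87 to 16.7), in 254 of the 373 others (68.1%, 63.2 to 72.6) and in 74.3% of sense peaks (72.0 to 76.5). The remaining bases of the same exons averaged 48.1% for the overlapping members and 50.8% for the others, read on the same strand, where at least 100 such bases were left. The peak lay above the rest of its exon in 15.6% of the overlapping members (10.7 to 22.4; 147 peaks) and in 64.1% of the others (59.0 to 68.9; 357 peaks).

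The pyrimidine hexamers are the purine hexamers of the other strand, so in overlapping members they count the purine hexamers under the sense peak. The 80 overlapped sense peaks wholly inside 1 exon held 6.28 purine hexamers per kb over their whole width. They need not be the partners of the 157 overlapping members and cover other bases, so the values of the 2 sets are not a matched pair. The purine hexamers occurred 1.15 times per kb in overlapping members, 4.07 in the others and 3.95 in sense peaks, and the pyrimidine hexamers 12.8, 2.07 and 1.17 times per kb. The hexamers had been taken from exonic peaks of this same list. A high density in exonic peaks, also over the rest of the exon, was thus partly fixed by that choice and is no separate observation. These densities pool all bases, so repeats weigh on them. An overlapping member of 206 bases in Igsf11, mostly a TTC repeat, held 154 pyrimidine matches. At least 1 purine hexamer was found in 32.5% of overlapping members, 51.2% of the others and 68.7% of sense peaks, whose widths differ. Outside the peaks, in the rest of the exon, they occurred 1.55 times per kb for overlapping members and 1.64 for the others. Among the members that overlapped no peak, the 255 within 10 kb after a same-strand gene end averaged 53.3% A plus G, and the 118 elsewhere 51.1%. After an end, 66.5% lay above the rest of their exon (60.4 to 72.1; 248 peaks). Elsewhere 58.7% did (49.3 to 67.5; 109 peaks), an interval that includes 50%. Whether overlapping members come from RNA of the antisense strand or from reads of the sense RNA placed on the other strand was not tested. These values cover 530 of the 4039 members and no intronic one.

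**Figure D4:**
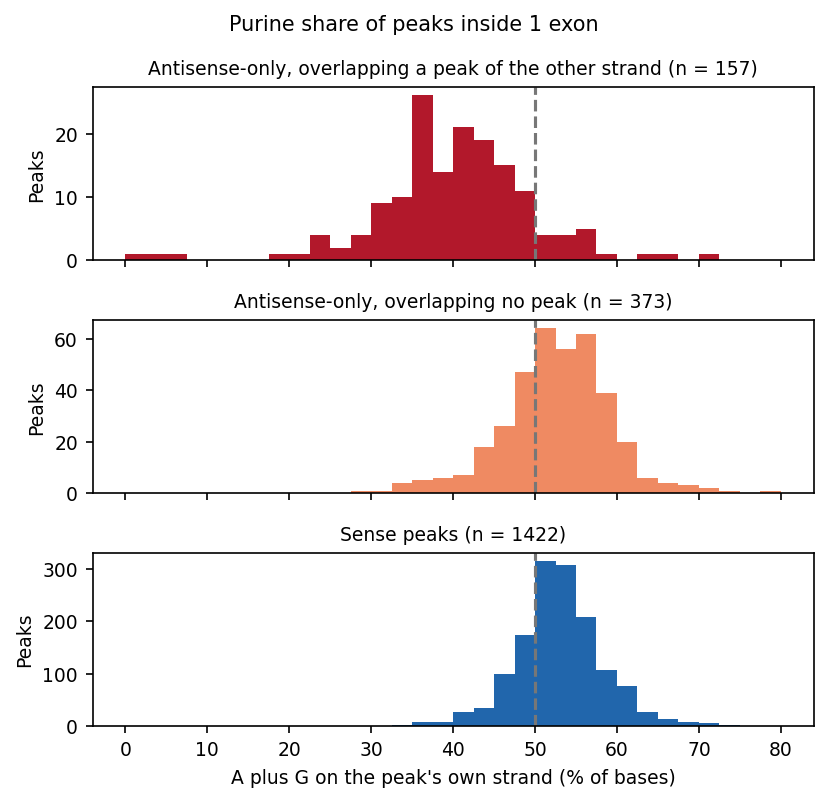
Share of A plus G on the peak's own strand, in % of bases, for peaks wholly inside 1 exon: 157 antisense-only peaks that overlap a peak of the other strand, 373 that overlap none, and 1422 sense peaks; the dashed line marks 50%. The first group centres near 41.0% and the others near 52.7% and 52.8% (medians).

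Removing the overlapping members left 1678 peaks within 10 kb after a same-strand gene end and 1535 that met neither description. The interval for the 1535 as a share of all members was 36.5% to 39.5%. Their median width was 486 bases, against 547 for the 1678 after gene ends. Exons of the opposite gene held 19.9% of the 1535, against 34.9% (32.7 to 37.2) of the 1678. The last decile of the opposite gene held 14.7% (13.0 to 16.5) of the 1535, against 32.4% (30.2 to 34.7), and the first decile 11.2% (9.72 to 12.9), against 4.59% (3.69 to 5.70).

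Some antisense-only peaks came in runs. Members of 1 strand with midpoints at most 10 kb apart formed 701 runs of at least 2 peaks, which held 1843 members (45.6%, interval 44.1 to 47.2), and 2196 members stood alone. There were 47 runs of at least 5, with 304 members and a median span of 16.8 kb (5.46 to 36.5). In 26 of the 47 (55.3%, 41.2 to 68.6) the first peak lay more than 10 kb after the nearest same-strand gene end. Of all 4039 members 2209 lay so, which is a similar share. Of the 304 members in these runs, 19 (6.25%, 4.04 to 9.55) lay in a RefSeq gene of their own strand, against 5.03% of all members.

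The largest run held 11 peaks within 36.5 kb of Slc22a22, an organic anion transporter gene (chromosome 15, 57346355 to 57382895, plus strand). All 11 were intronic, with widths from 211 to 885 bases, and lay in the fifth and sixth deciles of the gene. The last same-strand gene end before the first of them, that of Has2os, was 568 kb away, and the next start after the run was 47.3 kb away. In Slc22a22 as a whole, 2 members lay within 10 kb after a same-strand gene end. Both belong to the run, so a same-strand gene end lies inside the run, after its first peak. Slc22a22 had no sense peak.

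Hibch, an enzyme gene of valine breakdown, was crossed by 10 peaks within 16.4 kb (chromosome 1, 52897096 to 52913544, minus strand), 257 to 844 bases wide, of which 1 overlapped a sense peak. They began 8.92 kb after the end of 1700019D03Rik. Gfod1 was crossed by 10 peaks within 28.0 kb (chromosome 13, 43200012 to 43227977, plus strand), among them a peak of 2907 bases, and the nearest same-strand end, that of Phactr1, was 61.6 kb upstream. Gab1, which encodes an adaptor of receptor tyrosine kinases, was crossed by 9 peaks in the first and second deciles of the gene (chromosome 8, 80859692 to 80877123, plus strand). The next same-strand start there was that of Gm31105, 2.90 kb further on.

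The other large runs began at varied distances from a same-strand gene end. Ippk, which encodes an inositol phosphate kinase, was crossed by 9 peaks that began 0.847 kb after the end of the centromere protein gene Cenpp. Mfn2, a mitochondrial fusion gene, was crossed by 8 that began 4.42 kb after the end of Fv1. Of these, 5 lay within 10 kb after a same-strand gene end, not all of them after Fv1, so a further end lies inside this run. Itga11, an integrin gene, was crossed by 8 that began 9.73 kb after Fem1b. The 8 peaks in Klhl32 began 13.7 kb after Mms22l, a gene of replication fork repair. The 8 in Neb, which encodes the muscle protein nebulin, began 17.9 kb after Rif1, a regulator of replication timing. Runs count antisense-only peaks alone, so their starts need not be where peaks of the strand begin. A same-strand peak outside all genes lay 9.80 kb before the run in Klhl32 and 8.24 kb before that in Neb. Such a peak lay 4.69 kb before the run in Itga11 and 1.26 kb before that in Mfn2. Before the Ippk run the nearest was a sense peak, 10.6 kb away. Zfp202 and Olfr986 shared a run of 9 and the non-coding 1700052H01Rik held a run of 8, which began 73.9 and 55.1 kb after the nearest same-strand end. Apart from the runs in Hibch, in Zfp202 with Olfr986 and in Safb, none of the 12 runs of at least 8 peaks overlapped a peak of the other strand, and no peak of the 12 lay in a RefSeq gene of its own strand.

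**Figure D5:**
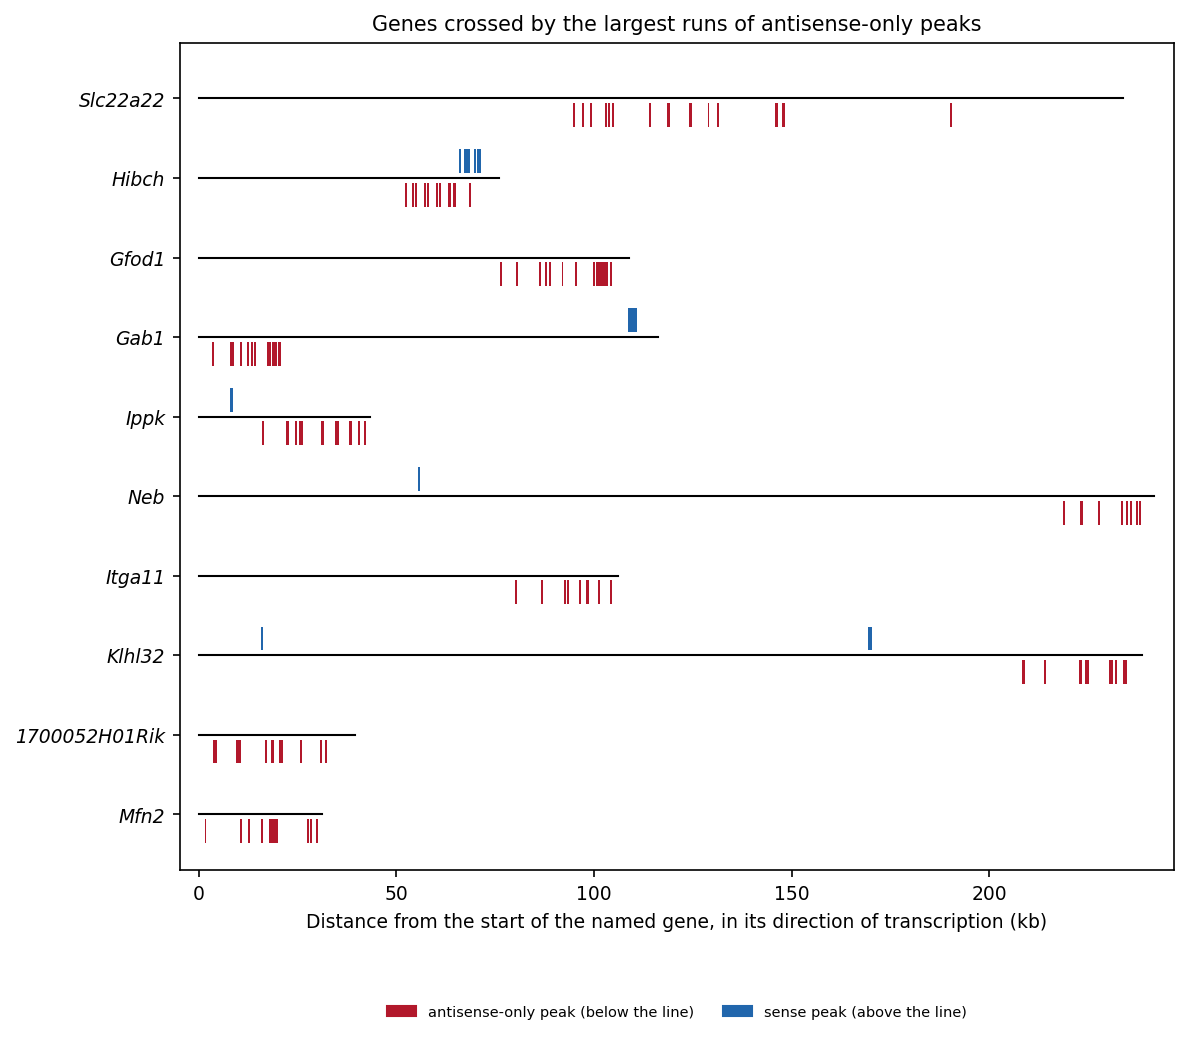
Positions of antisense-only peaks (red, below the line) and sense peaks (blue, above) in 10 genes crossed by the largest runs (Safb, Zfp202 and Olfr986 are not drawn), in kb from the start of the named gene; peaks narrower than 0.5 kb are drawn 0.5 kb wide. Slc22a22, Gfod1, Itga11, Mfn2 and 1700052H01Rik carry no blue peak, and the red peaks of Gab1 lie near its start. Peaks of neither class, which occur in Slc22a22 and Gab1, are not drawn.

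In all, 2725 genes had at least 1 antisense-only peak (4.91% of 55450), among them 2323 of 21951 protein-coding genes (10.6%) and 290 of 10155 long non-coding genes (2.86%). Most had few: 1899 had exactly 1 (69.7%, interval 67.9 to 71.4) and 511 had 2. The 23 genes with at least 8 members, which include every tie at the 20th, began with Gm20388 (23 members, 13 of them in another gene of the same strand as well), Slc22a22 (14), Gm37240 (13), Aftph (12), which encodes aftiphilin of clathrin trafficking, and Hibch, Trpc5, A530053G22Rik and Gfod1 (10 each). Gm20388 is annotated over 4435 kb. Aftph, Trpc5, a cation channel gene, and A530053G22Rik held no sense peak and no overlapping member. Fgfr2, a fibroblast growth factor receptor, Tenm4 and Gm26573 held 9 each. Fgfr2 is annotated over 2961 kb, and 4 of its 9 members were also opposite a further gene on its strand. Itga11 and Atrnl1 were among those with 8. By density, Kifc2 (0.600 per kb) was followed by Has3, a hyaluronan synthase gene (0.489), Gm34368 (0.397), Safb (0.373), Wnt2b (0.300), Safb2 (0.296), Zfp202 (0.282), Clca4a (0.266), Mfn2 (0.257) and Ncoa4 (0.250).

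Opposite genes often held sense peaks of their own. Of the 2323 protein-coding opposite genes, 1298 (55.9%, interval 53.8 to 57.9) had one, against 4452 of 19628 protein-coding genes without a member (22.7%, 22.1 to 23.3). Opposite genes were also longer, with a median of 39.5 kb against 17.4 kb for all protein-coding genes. With overlapping members left out, 16.6% (14.6 to 18.7) of the genes of 100 to 300 kb with a sense peak had an antisense-only peak, against 8.79% (6.80 to 11.3) of those without. From 30 to 100 kb it was 14.5% (13.1 to 16.0) against 8.90% (7.93 to 9.97). Below 10 kb the shares were 5.94% (4.14 to 8.46) and 3.73% (3.32 to 4.19), with intervals that meet. Still, 1813 members (44.9%, 43.4 to 46.4) lay in an opposite gene with no sense peak.

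Gene lists of embryonic stem cell biology held scattered members, read against the 10.6% of all protein-coding genes. Of 42 nuclear matrix and RNA-binding genes 11 had one (26.2%, interval 15.3 to 41.1), led by Safb (8), Safb2 (7) and Mbnl1 (3), a splicing regulator. Of 30 pluripotency factors 7 had one (23.3%, 11.8 to 40.9): Esrrb, a nuclear receptor of naive cells, held 4 and the DNA demethylation enzyme gene Tet1 held 2, while Fgf4, Myc, Prdm14, Tfcp2l1 and Zfp42 held 1 each. Of the 48 imprinted protein-coding genes 10 had one (20.8%, 11.7 to 34.3), with 3 each in Gnas, Rtl1 and Usp29 and 2 in Blcap. Of 22 long neuronal genes 8 had one (36.4%, 19.7 to 57.0), led by Cntnap2 (4), Dmd (3), Dpp6 and Macrod2 (2 each), and their median length was 1228 kb. Chromatin regulators had 6 of 38 (15.8%), led by Kdm2b (3) and Chd7 (2), and genes with a described natural antisense RNA 6 of 40 (15.0%), led by Gnas and Mapt (3 each). Genes of primitive endoderm and early lineages had 2 of 28 (7.14%), Col4a2 and Pax6, liver genes 1 of 15 (F2) and blood cell genes 0 of 15, which allows a share of up to 20.4% by the Wilson interval. The median gene had 0 members in all 9 lists. The intervals of the nuclear matrix and RNA-binding, pluripotency, imprinted and long neuronal genes lie above 10.6%, but the share of genes with a member also goes with gene length. It was 10.3% (9.56 to 11.0) of protein-coding genes of 10 to 30 kb, 14.4% (13.5 to 15.4) of those of 30 to 100 kb and 26.3% (22.8 to 30.1) of those over 300 kb. The last of these lies inside the interval of the long neuronal genes, and the share from 30 to 100 kb inside that of the imprinted genes, whose median length was 31.8 kb. The median length was 21.5 kb for the nuclear matrix and RNA-binding genes and 12.8 kb for the pluripotency factors. All 15 members in Safb and Safb2 overlap a sense peak, as do all members in Luc7l3, Rbfox2, Hnrnpl, Pnisr, Sltm and Srsf11. Of the nuclear matrix and RNA-binding genes with a member, only Mbnl1, Son and Srsf10 held members that overlapped no sense peak. The share of that list above 10.6% therefore rests mostly on overlapping members. Other lists also count such genes. The only member overlaps a peak of the other strand in the pluripotency factors Tfcp2l1 and Zfp42, and in the imprinted genes Plagl1, Ppp1r9a and Zdbf2. The same holds for the long neuronal gene Ctnnd2. Shares of the lists without overlapping members were not computed.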

How the data were processed

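RNA immunoprecipitation libraries of mouse embryonic stem cells (9, KAPA HyperPrep kit with RiboErase, per the labels' protocols) were processed by the submitters, whose processing notes name mm10, STAR, Subread and featureCounts. No source used here gives the peak caller, its thresholds, pooling or library depths. A list of 30998 peaks in 6 columns, deposited by the authors, was analysed. The score in the deposited list is 500 throughout and was not used. Positions were taken from the deposited start and end columns, with starts counted from 0.

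Genes and exons came from GENCODE M21 (GRCm38, the assembly that mm10 stands for). A member with several opposite genes was assigned to a protein-coding gene first, then to the shortest, for positions along the gene, and counted in each for counts per gene. Distances run from the midpoint. The bases on which a member could lie were counted exactly. No genome was used, so sequence comes from exons alone and the planned comparison with flanking windows was replaced by the rest of the exon. RefSeq genes (GRCm38.p6) with a known strand numbered 27025. No tests were run, and shares were compared by their intervals (SciPy 1.17.1, Python 3.11.15). The placement code was tested on simulated peaks. The named genes are the 20 opposite genes with most members and their ties, the 10 densest with at least 5 members, the 10 largest runs and their ties, the 10 same-strand genes followed by most members and their ties, the 10 widest members, and up to 4 genes of each list. Not every gene or sequence this rule covers is reported here. Members and lists were chosen with earlier results of these data known.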

Additional observations from a re-analysis of the deposited data

How the results depend on the processing

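No paired analysis was possible because the list holds no value per library, and for the same reason no library could be left out. Of 82 comparisons with an alternative, 51 kept the value within its interval or the count within 1.5 times, and 31 moved; antisense-only peaks stayed fewer than sense peaks in the 8 alternatives that give their ratio, taken as a ratio of counts. Requiring every base to be antisense gave a ratio of 0.199, an exonic share of 25.6% and 20.0% in the last decile. Placing peaks by their 3′ end gave 23.0% exonic and 19.9% in the last decile. With protein-coding and long non-coding genes alone, 26.3% were exonic, 41.9% lay within 10 kb after a same-strand end and 12.9% before a start. With basic transcripts 24.5% were exonic. Members no narrower than the median of the list numbered 1656 in 1383 opposite genes, with a ratio of 0.163, 32.4% exonic, 23.1% in the last decile, 50.5% after an end and 12.9% overlapping the other strand. Extending same-strand genes by 10 kb left 2209 peaks in 1551 genes, with a ratio of 0.117 to the unchanged number of sense peaks, although the bases left to antisense-only peaks are fewer, 22.1% exonic, 10.2% in the first and 12.7% in the last decile, 13.9% before a start and 30.5% overlapping. The share after an end has no value there, by construction. Without the 23 opposite genes with at least 8 members, and without the sense peaks in them, the ratio was 0.206. A setting chosen after seeing the data left out overlapping members and gave 23.9% in the last decile and 52.2% after an end. Counting each opposite gene once, also chosen later, gave 31.6% exonic, 47.2% after an end, 18.9% before a start and 22.9% overlapping. Starts counted from 1 moved nothing. No alternative was run for the purine share. Unknown depth limits every count.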

Other observations

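The widest antisense-only peak, 4431 bases, lay opposite the 3′ untranslated region of St5, 1.64 kb after the end of the ribosomal protein gene Rpl27a. Of the 10 widest, 7 lay within 10 kb after a same-strand gene end, among them peaks of 3936 bases after Coa6, 3323 bases after Rrm1, which encodes a ribonucleotide reductase subunit, and 3291 bases after Eif2b5. The others were 3996 bases in Zmynd8, which shared 825 bases with a sense peak, 3030 bases in Tsc22d1 and 2955 bases in Stag1, a cohesin gene.

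Density of antisense-only peaks ranged from 2.33 per Mb on chromosome X to 4.37 on chromosome 8. Chromosome Y held 0. Chromosome 18 had 2.44 antisense-only peaks per Mb, second lowest among the autosomes after chromosome 6 (2.37), and the highest density of sense peaks, 20.3 per Mb.

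RefSeq placed 203 members (5.03%, interval 4.39 to 5.74) inside a gene of their own strand where GENCODE M21 has none. Of these, 129 lay in non-coding genes and 74 in protein-coding genes. Gpm6a, which encodes a neuronal membrane glycoprotein, held 7 of them opposite Wdr17, and Gm33721 held 6 opposite the clock gene Arntl. These genes were named after their values were seen.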
